A study of Mus musculus with 12 samples.

Results

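Basal cells of the airway are usually recognised by their keratins, but 6 genes outside the keratin family also mark them: Ngfr, Snai2, Pdpn, Dlk2, Dapl1 and Aqp3. These 6 genes, 6 of the 55401 listed for the series, were selected by name, and all 6 were found and passed the filter on low values that left 13792 genes for testing. Expression was measured by poly(A) RNA sequencing of airway organoids grown from the lungs of adult C57BL/6J mice. In all 12 libraries the organoids carried a lentiviral Histone2A-mCherry reporter driven by a p63 promoter amplified from human DNA. In the 6 ablation dishes a femtosecond laser destroyed 10 adjacent cells in each of 45 organoids, the 6 control dishes of 45 organoids were left without ablation, and RNA was taken 4.5 h later. Each ablation dish shared its number, culture day and passage with 1 control dish, giving 6 pairs.

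The pairs were harvested at day 14 (pairs 1 and 4), day 15 (pair 5), day 18 (pair 6), day 19 (pair 7) and day 20 (pair 3) of culture. Pairs 1 and 3 had gone through 14 passages beyond the second (P2+14), pairs 4 and 5 through 15 (P2+15) and pairs 6 and 7 through 16 (P2+16). The library numbers fell into 2 runs, pairs 1, 3 and 5 in set 1 and pairs 4, 6 and 7 in set 2. The titles of controls 4, 6 and 7 contain the word ablation although their treatment label reads control, and the treatment label was followed. These 3 controls are all the controls of set 2, so that values for set 1 alone, given with the ablation results, do not involve them. Nothing in the labels ties the dishes to separate mice, so p-values measure only the spread between dishes or between pairs of dishes. Whole reads recovered from 9 libraries totalled 23631212 to 29775699 per library. Ablation 1 stood furthest from the others, with a median correlation of 0.9855 with the other libraries across genes, against 0.987 to 0.9921 for the rest.

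Basal cells are the resident stem cells of the airway epithelium. They sit on the basement membrane, renew themselves and give rise to secretory and ciliated cells, and after injury they spread, divide and refill the gap. Their identity rests on the transcription factor p63 (Trp63), and they carry membrane proteins and regulators that are switched off as daughter cells differentiate toward the lumen. Among the 6 genes, Ngfr encodes the p75 neurotrophin receptor, Pdpn the membrane glycoprotein podoplanin and Aqp3 a water and glycerol channel of the basolateral membrane. Snai2 (Slug) is a zinc finger repressor that binds E-box sequences, Dlk2 is a delta-like membrane protein with EGF repeats that modulates Notch signalling, and Dapl1 is a small protein named for its likeness to death-associated protein.

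Promoter sequence is shown for Ngfr, Dapl1 and Aqp3 because these 3 genes had their highest levels in the same 2 libraries, control 1 and ablation 1. Each line is the 250 bases before the annotated start site on the gene's own strand (RefSeq, GRCm38.p6). Ngfr lies at chr11:95568818-95587735 on the minus strand and its window at chr11:95587699-95587948. The RefSeq start site of Ngfr lies inside these gene coordinates, so the end of its window, with the last GC box, falls within the gene. Dapl1 lies at chr2:59484653-59505020 on the plus strand and its window at chr2:59484403-59484652. Aqp3 lies at chr4:41092722-41098183 on the minus strand and its window at chr4:41098184-41098433. Capitals mark matches, on either strand, to 4 motifs searched: the GC box GGGCGG, the TATA box TATAAA, the E-box CAGGTG bound by Snai2 and the Zeb factors, and the AP-1 site TGANTCA.
Ngfr: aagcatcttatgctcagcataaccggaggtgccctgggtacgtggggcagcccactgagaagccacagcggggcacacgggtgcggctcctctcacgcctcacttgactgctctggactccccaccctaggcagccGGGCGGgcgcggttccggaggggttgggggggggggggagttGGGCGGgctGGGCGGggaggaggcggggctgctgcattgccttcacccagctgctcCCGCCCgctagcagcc
Dapl1: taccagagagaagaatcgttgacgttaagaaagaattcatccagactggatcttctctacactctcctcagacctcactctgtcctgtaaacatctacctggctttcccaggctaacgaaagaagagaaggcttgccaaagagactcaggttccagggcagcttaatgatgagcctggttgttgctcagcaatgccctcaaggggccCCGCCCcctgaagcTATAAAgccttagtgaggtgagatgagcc
Aqp3: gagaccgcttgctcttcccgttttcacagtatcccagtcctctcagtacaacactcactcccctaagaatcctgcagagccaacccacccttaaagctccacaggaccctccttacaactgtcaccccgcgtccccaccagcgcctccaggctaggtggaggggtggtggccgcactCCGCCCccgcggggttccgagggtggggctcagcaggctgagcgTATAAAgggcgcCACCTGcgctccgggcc
Ngfr held 4 GC boxes and no match to the other 3 motifs. Dapl1 held 1 GC box and a TATA box whose first base was at -29 from the start site, and Aqp3 held 1 GC box, 1 E-box and a TATA box that also began at -29. None of these matches overlapped another. Of the 32851 promoter windows of the same length, 32.7% held a GC box, 12.4% a TATA box, 17.2% the E-box and 6.75% the AP-1 site. The window of Pdpn (gene at chr4:143267431-143299564, minus strand) held none of the 4 motifs. Dlk2 (chr17:46297421-46303271, plus strand) has a pair of windows, of which 1 held 2 GC boxes and the other held no match. The window with GC boxes lies within these gene coordinates and the other runs into them. Snai2 lies at chr16:14705852-14709385 on the plus strand. Exons of Dlk2 overlap those of Abcc10 on the opposite strand, which averaged 333 normalized counts. The library kit kept strand, but whether reads were counted by strand is not given in the sources used here. If they were not, reads of the 2 genes could not be told apart where they overlap.

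All 6 markers were expressed in every library, over a wide span of levels. Compared per kilobase of exon (normalized count divided by the gene's exon length), Aqp3 averaged 26300 over the 12 libraries, a level above 99.8% of the tested genes, and ranged from 21800 to 37800. Snai2 followed with 2020 (1230 to 2350), above 95.4% of genes. Ngfr averaged 771 (542 to 1170), Pdpn 570 (463 to 655), Dapl1 460 (209 to 1010) and Dlk2 335 (267 to 398), and Dlk2 still lay above 68.0% of tested genes. Aqp3 exceeded Snai2, and Snai2 exceeded Ngfr, in 12 of 12 libraries. The lower neighbours were less clearly ordered. Ngfr exceeded Pdpn in 11 of 12 libraries, Pdpn exceeded Dapl1 in 10 and Dapl1 exceeded Dlk2 in only 8, so the positions of Dapl1 and its neighbours were not separated beyond the spread between libraries. The keratin Krt5 stood 4.84 ± 0.697 times (SD, n = 12) above Aqp3 per kilobase and was higher in every library. Pdpn and Dlk2 kept the steadiest ratio of the pairs of markers compared, 1.71 ± 0.135 (SD, n = 12), between 1.54 and 1.98.

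**Figure D1:**
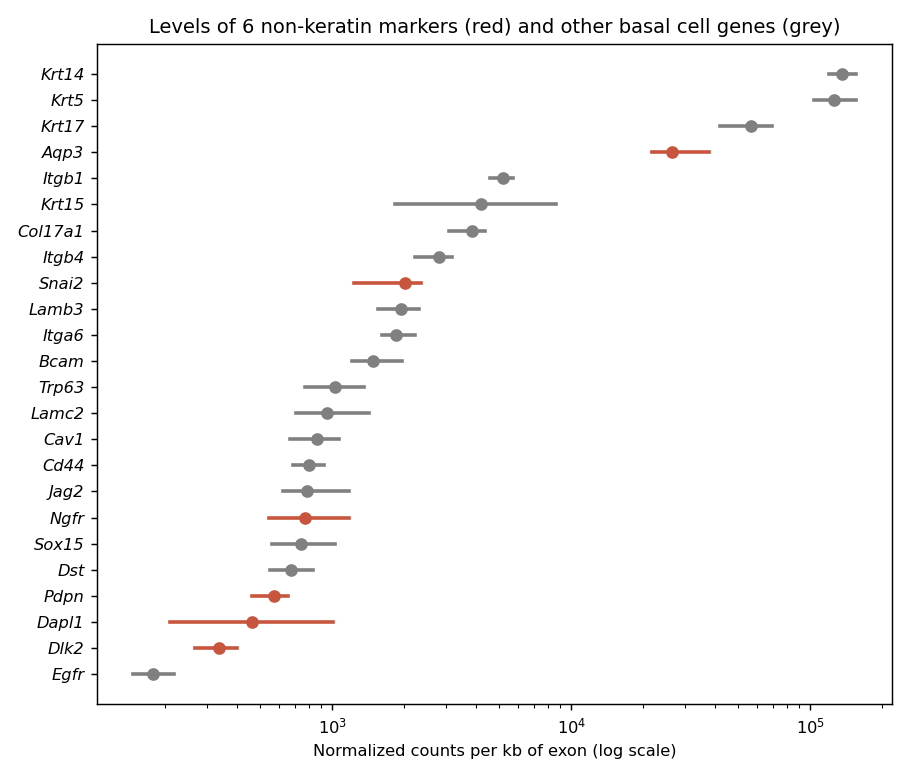
Level of the 6 markers (red) and of 18 other basal cell genes (grey) on a log scale, in normalized counts per kilobase of exon. Points are means over the 12 libraries and bars run from the lowest to the highest library; Aqp3 lies directly below Krt14, Krt5 and Krt17, whereas Dlk2 is near the bottom of the list.

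The libraries were also checked for cell types that share these markers. Pdpn is also a marker of alveolar type I cells and of lymphatic vessels, Ngfr of Schwann cells and stromal cells, and Snai2 of mesenchymal cells. Of 9 fibroblast and stromal genes, 8 averaged under 10 normalized counts, and the list summed to 19.98 to 46.0 in ablation and 20.7 to 48.3 in control libraries. All 7 endothelial and lymphatic genes averaged under 10, with sums of 8.89 to 24.4 and 11.6 to 25.6, and Kdr was at 0 in every library. Among 6 Schwann cell and neural crest genes, Sox10 and Foxd3 were at 0 in every library, and the sum of 4402 to 6658 in ablation and 4281 to 6563 in control libraries came almost wholly from Erbb3, a receptor also found in epithelia. Of 7 alveolar type I genes, Aqp5 and Hopx were abundant but Ager averaged 15.7 and Cldn18 0.0833 normalized counts. The alveolar type II list summed to 1032 to 1284 in ablation libraries, of which Abca3 gave nearly all, while Sftpc and Sftpb were at 0. Epithelial Cdh1 averaged 15880 and Epcam 12440. Markers of differentiated airway cells were uneven: the secretory gene Scgb1a1 averaged 3.30 and the ciliated cell gene Foxj1 9.87 normalized counts, whereas Cyp2f2, also a secretory cell gene, averaged 49000. The basal keratins Krt5 and Krt14 averaged 276900 and 239800. The squamous and hillock list was uneven as well. Krt6a averaged 82450, Krt13 29880, Sprr1a 10650 and Krt4 9195, but Krt1 5.05, Krtdap 29.8 and Lor 104.

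**Figure D2:**
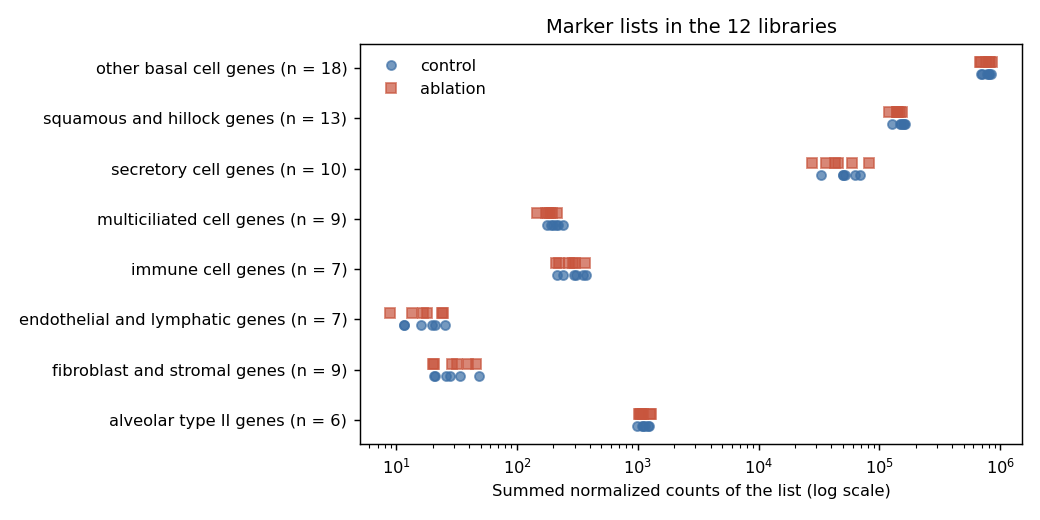
Summed normalized counts of marker lists in each library (log scale), with control libraries as blue circles and ablation libraries as red squares. Basal, squamous and secretory lists lie orders of magnitude above the fibroblast and endothelial lists, and the groups overlap in every list.

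The first comparison asked whether the markers changed within 4.5 h of the loss of 10 cells per organoid. Every one of the 6 markers had a lower estimate after ablation, but none passed the test. The median over the 6 was -0.14 on the log2 scale, against -0.0036 over all tested genes, 51.5% of which had a lower estimate. Tested markers of other cell types also had lower estimates throughout in 4 lists, with 5 of 5 secretory genes (median -0.19), 3 of 3 multiciliated cell genes (-0.16), 5 of 5 alveolar type I genes (-0.11) and 4 of 4 immune cell genes (-0.17), none of them called. Tested were 5 of 10 secretory, 3 of 9 multiciliated, 5 of 7 alveolar type I and 4 of 7 immune cell genes. Several lay near the filter limit of 10 normalized counts, such as Muc5b (mean 12.6), Ptprc (12.8) and Ager (15.7). The part of these lists in the marker values was not tested. In the limma model with library set as a term, 0 of 6 markers passed an adjusted p of 0.05, as did 0% of all genes tested. At an unadjusted p under 0.05, 1083 genes (7.85%) passed, among them 1 marker, Pdpn. edgeR on the recovered reads of 9 libraries called 0 genes too, in a fit with library set but no pair term. It lacked ablation 3, ablation 4 and control 4. With pair as a term in place of library set, 3 of the 6 markers were lower at an unadjusted p under 0.05 (limma). In that direction 8.86% of all genes passed. None of the 6 markers passed adjustment in that model, whereas 150 of all tested genes (1.09%) did. Of 18 other basal cell genes, 10 had higher and 8 lower estimates (median 0.01) in the model with library set. These are bulk libraries, in which a change in the share of basal cells and a change in RNA per basal cell cannot be told apart.

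Pdpn, which links the membrane to the actin cytoskeleton through ezrin and related proteins, gave 1086, 1185, 1074, 1032, 1056 and 1143 normalized counts in the controls of pairs 1, 4, 5, 6, 7 and 3, an order by culture day that is kept throughout. The ablation dishes of the same pairs gave 905, 1034, 904, 841, 969 and 1190. Ablation was lower in all pairs except pair 3, but the groups overlapped, since ablation 3 was the highest library of all. The means were 974 ± 125 in ablation and 1096 ± 57.1 in control dishes (SD, n = 6). The log2 difference was -0.18 (SE 0.0771), with an unadjusted p of 0.0377 and an adjusted p of 0.629 by limma. An exact permutation test of the group means, two-sided and without regard to pairs, gave p = 0.0541. Flipping the signs of the 6 pair differences gave an exact p of 0.0625, where 0.0312 is the smallest possible. With pair as a term in place of library set, the estimate was the same and the adjusted p 0.109.

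Dlk2 had 776, 696, 698, 658, 783 and 840 normalized counts in the controls and 655, 779, 640, 564, 656 and 745 in the ablation dishes. It was lower after ablation in every pair but pair 4, and the groups overlapped over most of their range. The log2 difference was -0.14 (SE 0.0835, adjusted p = 0.707, limma), and 0.236 was the adjusted p with pair as a term.

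Dapl1 was the most variable of the 6, its highest library holding 4.84 times the counts of its lowest. Its controls gave 556, 267, 193, 283, 370 and 362 normalized counts and the ablation dishes 686, 163, 142, 277, 210 and 241. It was higher after ablation in pair 1 and lower in the other 5 pairs, and the pair 1 dishes were the 2 highest of the 12. The log2 difference was -0.38 with a 95% interval from -1.11 to 0.35 (SE 0.339, adjusted p = 0.813, limma), the widest interval of the 6 markers. With pair as a term the adjusted p was 0.174. Without ablation 1, added as an alternative after the data were seen, the difference was -0.67 with an adjusted p of 0.290 by limma. With pair as a term and pair 1 left out, it was -0.52 with an adjusted p of 0.0447 (limma), the only call for any marker in the ablation comparison. This fit was not planned either, and 176 of the 13792 tested genes were called in it.

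Aqp3 had 58946, 50625, 49268, 44710, 44762 and 43851 normalized counts in the controls and 69091, 44952, 44841, 43538, 39908 and 43823 in the ablation dishes. As with Dapl1, pair 1 held the highest 2 libraries and rose after ablation while the other 5 pairs were lower or, in pair 3, nearly level. The log2 difference was -0.05 (SE 0.109, adjusted p = 0.943, limma), and without ablation 1 it was -0.15 with an adjusted p of 0.401. Estimates opposite in sign between pair 1 and all other pairs were found in 6.08% of tested genes.

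Ngfr gave 3085, 3080, 2473, 2570, 2798 and 2323 normalized counts in the controls and 4039, 2441, 2339, 2679, 2188 and 1867 in the ablation dishes. Ablation 1 was the highest library and ablation 3 the lowest, so that the ablation group spanned the whole range of the controls. The difference was -0.11 (SE 0.152, adjusted p = 0.887, limma) and became -0.26 (adjusted p = 0.275) without ablation 1.

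Snai2 went the other way in pair 1. Its controls gave 3613, 4131, 4635, 4751, 4164 and 4167 normalized counts and the ablation dishes 2478, 3884, 3844, 4281, 4592 and 4515. Ablation 1 was by far the lowest library, and Snai2 was higher after ablation in pairs 7 and 3 only. The difference of -0.13 (SE 0.124, adjusted p = 0.820, limma) shrank to -0.01 (adjusted p = 0.969) without ablation 1.

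**Figure D3:**
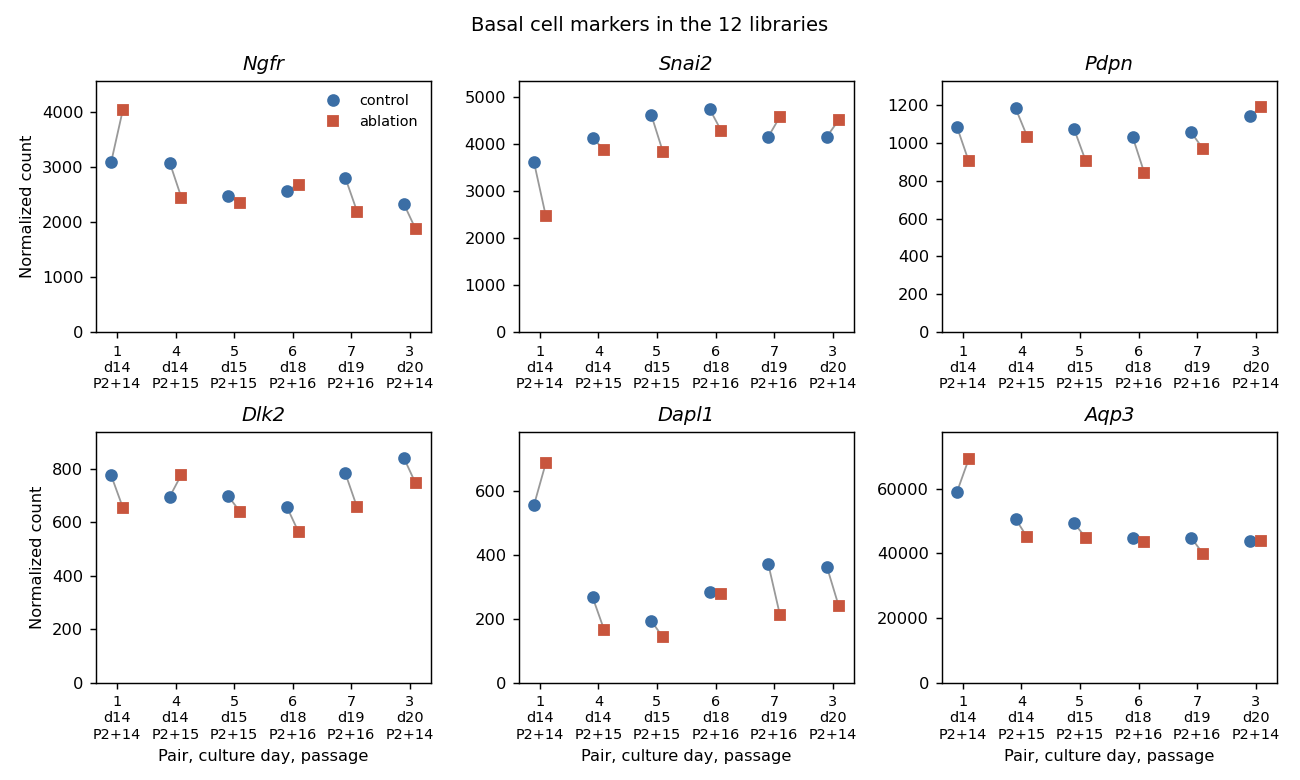
Normalized counts of each marker in the 12 libraries, with control (blue circles) and ablation (red squares) dishes of a pair joined by a line and pairs ordered by culture day. Pair 1 holds the highest values of Ngfr, Dapl1 and Aqp3 and the lowest of Snai2, with 4039, 686, 69091 and 2478 counts in ablation 1.

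Pair 1 held the highest pair mean of 3 of the 6 markers and the lowest of 1, Snai2. Among all tested genes it held the highest pair mean in 24% and the lowest in 23.1%. Read together by pair, 4 of the 6 markers (Pdpn, Dlk2, Dapl1 and Aqp3) were lower after ablation in 5 of 6 pairs, and Ngfr and Snai2 were lower in 4. Over all tested genes, 18.4% were lower in at least 5 of 6 pairs. No marker had ablation and control groups that did not overlap, which held for 0.457% of genes. The 2 library sets gave estimates of the same sign for 5 markers. In set 1, where titles and treatment labels agree, the log2 differences were -0.0022 for Ngfr, -0.23 for Snai2, -0.15 for Pdpn, -0.18 for Dlk2 and -0.24 for Dapl1, and +0.03 for Aqp3. In set 2 they were -0.21, -0.03, -0.20, -0.10, -0.52 and -0.13 in the same order. The test of the difference between sets passed for no marker (adjusted p between 0.727 and 0.923, limma), while 0.00725% of genes passed.

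**Figure D4:**
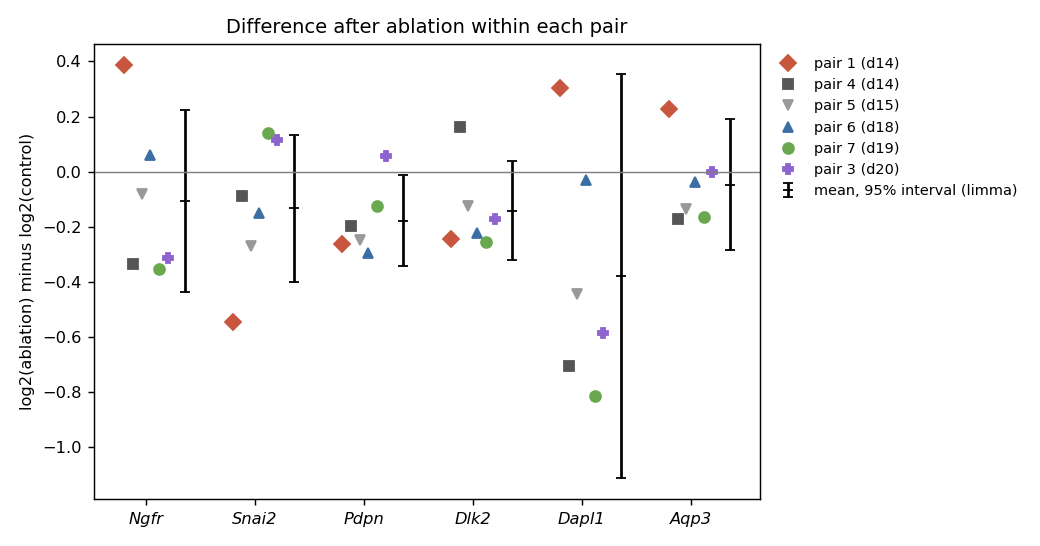
Log2 difference between ablation and control dish within each of the 6 pairs, for each marker, with the mean and its 95% interval from limma to the right of the points. The interval includes 0 for all markers except Pdpn, whose adjusted p was 0.629, and pair 1 (red diamonds) lies apart for Ngfr, Snai2, Dapl1 and Aqp3.

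The response was also compared between the 3 late pairs (days 18 to 20) and the 3 early pairs (days 14 and 15). Only pairs 1 and 3 set an early against a late pair at the same passage. Snai2 averaged a log2 difference of 0.04 in the late and -0.30 in the early pairs. The early mean held pair 1 at -0.54, beside -0.09 in pair 4 and -0.27 in pair 5. The gap of 0.34 (SE 0.117) had an unadjusted p of 0.0152 and an adjusted p of 0.818, in a test that 5.82% of genes passed without adjustment and 0% with it. Without pair 1 the gap was 0.22 (adjusted p = 0.960, limma). The other 5 markers had adjusted p-values between 0.923 and 0.9755 (limma).

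Partner genes were read from lists for each marker's pathway. Of 18 other basal cell genes, 10 had higher and 8 lower estimates, with a median of 0.01 and none called. With pair as a term, in which 1.09% of all genes passed, Trp63 alone of the 18 was called, with a rise of 0.39 on the log2 scale (SE 0.0525, adjusted p = 0.00825, limma), while the 6 markers gave no call. In the list of airway epithelial genes Sox2, a transcription factor of the airway lineage, fell by 0.17 on the log2 scale in that model (adjusted p = 0.0488, limma). The Sox2 call was lost without pair 4, where all 8 genes called were higher. Of 12 ligands, co-receptors and adaptors of Ngfr, 9 were tested and none was called in either model. The receptor itself stood 7.99 ± 1.70 times (SD, n = 12) above its ligand Ntf5 per kilobase. Ntrk2, which binds neurotrophins alongside Ngfr, averaged 10.7 normalized counts. Among 9 Snail family and mesenchymal transition genes, 5 were tested and none was called. Snai2 stood 33.0 ± 10.5 times above Vim per kilobase (SD, n = 12), Snai1 averaged 0.0782 normalized counts and Zeb2 1.00. The list was not low throughout, since Fn1 averaged 3858 and Vim 320 normalized counts. Of 8 Pdpn partners, 6 were tested and none was called, and Clec1b, the platelet receptor of podoplanin, was at 0 in every library. Of 8 genes for the Dlk2 family and the Notch pathway, 7 were tested and none was called. With pair as a term 2 of the 7 were higher and 2 lower at an unadjusted p under 0.05, as were 17.6% of all genes in either direction, and none passed adjustment. Dlk1, the sister gene of Dlk2, averaged 0.410 normalized counts. Of 11 other aquaporins, 4 were tested and none was called. Aqp5 stood level with Aqp3 per kilobase, with a ratio of Aqp3 to Aqp5 of 1.06 ± 0.219 (SD, n = 12) and Aqp3 the higher in 6 of 12 libraries. Of 13 squamous and hillock genes, 12 were tested and none was called.

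Culture day and passage were compared over the means of the 6 pairs. No marker passed for late against early days, where 0.00725% of genes were called (1 gene) and 6.49% passed without adjustment. Aqp3 averaged 64018, 47789 and 47055 normalized counts in the early pairs 1, 4 and 5 and 44124, 42335 and 43837 in the late pairs 6, 7 and 3. All late pairs lay below all early pairs, and the log2 difference was -0.23 (SE 0.129, adjusted p = 0.796, limma). Snai2 moved the opposite way, from 3046, 4008 and 4240 to 4516, 4378 and 4341, again without overlap, with a difference of 0.22 (SE 0.134, adjusted p = 0.827, limma). Pair means did not overlap in 9.73% of all genes, and in 5.34% they were lower in the late pairs without overlap. A two-sided exact permutation test of 3 against 3 pairs gave p = 0.1 for both genes, the smallest that this design allows. Within library sets 1 and 2 the differences were -0.32 and -0.14 for Aqp3 and 0.29 and 0.15 for Snai2, where the lack of overlap already fixes the sign and 1 arm of each set is a single pair. Leaving out pair 1 took the Aqp3 difference to -0.13 and the Snai2 difference to 0.10.

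Ngfr averaged 3562, 2761 and 2406 in the early and 2624, 2493 and 2095 in the late pairs, which overlapped (-0.30, SE 0.165, adjusted p = 0.805, limma). The difference was -0.15 without pair 1 and -0.11 without pair 3. Dapl1 averaged 621, 215 and 168 in the early and 280, 290 and 302 in the late pairs. Its difference of 0.15 had no stable size or sign. It was 0.60 (adjusted p = 0.256, limma) without pair 1, -0.12 without pair 4 and -0.21 without pair 5. Pdpn (0.03) and Dlk2 (0.02) showed hardly any difference by day, with opposite signs in the 2 library sets.

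For passage, the 2 pairs at P2+16 were set against the 2 at P2+14, a contrast in which 0.0653% of genes passed (9 genes) and 13.1% passed without adjustment. No marker passed. The log2 differences were -0.09 for Ngfr, 0.30 for Snai2, -0.15 for Pdpn, -0.18 for Dlk2, -0.61 for Dapl1 and -0.29 for Aqp3, with adjusted p-values between 0.476 and 0.890 (limma). The P2+14 pairs, 1 and 3, were unlike each other. Dapl1 averaged 621 in pair 1 and 302 in pair 3, Ngfr 3562 and 2095, and Aqp3 64018 and 43837. With pair 3 left out, pair 1 stood alone for P2+14, and the estimates were -1.14 for Dapl1, 0.57 for Snai2, -0.56 for Aqp3 and -0.47 for Ngfr. With pair 1 left out instead, they were -0.078 for Dapl1, 0.034 for Snai2, -0.022 for Aqp3 and 0.29 for Ngfr. Each of these fits leaves a single P2+14 pair with no spread of its own, so only effect sizes are given here. All P2+16 pairs were in set 2 and all P2+14 pairs in set 1, so that only the P2+15 pairs 4 and 5 separate passage from library set. With library set as a term the estimates were -0.28 for Ngfr, 0.38 for Snai2, -0.31 for Pdpn, -0.32 for Dlk2, -0.94 for Dapl1 and -0.31 for Aqp3, and no gene was called.

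Across the 12 libraries the markers fell into different patterns, described here on log2 values with no test because the dishes of a pair share day and passage. Ngfr and Aqp3 followed each other (r = 0.844), as did Dapl1 and Aqp3 (0.713) and Ngfr and Dapl1 (0.707), while Snai2 ran against Aqp3 (-0.839) and Ngfr (-0.766). These relations depended on pair 1. Over the 10 libraries without it the values were 0.564, -0.0418, 0.3, -0.142 and -0.238 in the same order. Pdpn and Dlk2 had r = 0.757 over 12 and 0.749 over 10 libraries, so that their relation was nearly the same without pair 1.

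The genes most like each marker were found by Pearson correlation over the 12 libraries. Ngfr was closest to Mfsd1 (0.962), Galnt5 and Abcd3, Snai2 to Snhg15 (0.963), Colgalt1 and Cers2, and Aqp3 to Smg6 (0.971), Lgi2 and Krt79. Dapl1 was closest to Pitpnm3 (0.960), Retsat and Fabp6, and Pdpn to Ube2e1 (0.920), Ndufs1 and Stau2. Dlk2 was closest to the ribosomal protein gene Rps2 (0.904) and to the ribosomal protein pseudogenes Rpl9-ps6 and Rps3a3, whose reads can be shared with their parent genes. For these same first-ranked genes the correlation without both dishes of pair 1 was 0.932 for Ngfr, 0.829 for Snai2, 0.866 for Aqp3, 0.967 for Dapl1, 0.911 for Pdpn and 0.894 for Dlk2.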

How the data were processed

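Poly(A) RNA of 12 dishes was sequenced, and the authors aligned and counted reads with nf-core/rnaseq on GRCm38 and divided gene counts by DESeq2 size factors. The deposited values are therefore a signal, normalized counts per gene, given with exon lengths and with fold changes and p-values of the authors' own comparison, which were not used. In all libraries 100% of values were whole multiples of 1 read, within a tolerance of 0.01 read that widened in proportion to the value for high counts. Reads were recovered for the 9 libraries whose step could be told from 1.

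Samples were grouped by treatment label. Genes that reached 10 normalized counts in 6 or more libraries (13792 of 55401 listed) were tested on log2(normalized count + 1), so fold changes are on that scale, with limma 3.58.1 (R 4.3.3; trended, robust variance; Benjamini-Hochberg over all 13792). Ablation was fitted with library set as a term. The study's model held condition and batch, and the batch is not named in the sources used here, so the 2 runs of library numbers stood in for it. Day and passage were tested on pair means, and differences in response on pair differences. Same-numbered dishes deviated together across genes in every pair (correlations of 0.205 to 0.618), so pair was also fitted as a term. Scripts were tested on simulated data. The alternatives were another pseudocount, no filter, quantile normalization, each pair left out, each library set alone and edgeR 4.0.16 on recovered reads. All 6 markers are named, with the 3 genes most like each marker. Of the partner lists, any called genes and some but not all of the most abundant genes are named. Genes at or near 0 were named after their values were seen. The members and lists were chosen with earlier results of these data known.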

Additional observations from a re-analysis of the deposited data

Results flagged for a closer look

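In 12 checks, of 6 markers in 2 groups of 6 dishes, the highest or lowest dish was compared with the others by Dixon's criterion (a gap to the nearest dish above the 95% limit for 6 values, as a share of the group's range), which chance alone meets in about 1 group of 20. It was met 4 times, each time by ablation 1. Dapl1 had 686.28 normalized counts there (gap 0.751 of the range), Aqp3 had 69091 (0.827), Ngfr had 4038.7 (0.626, just past the limit) and Snai2 had 2478 (0.646). The rate of 1 in 20 holds for normal values in separate checks. These 4 markers were correlated over the 12 libraries (r = 0.844 for Ngfr and Aqp3, -0.839 for Snai2 and Aqp3), so the 4 are not separate events. Over all tested genes, ablation 1 met the criterion in 4.08%, and the other libraries in 0.131% to 3.6%. Control 1, the partner dish, was the second highest library for Dapl1 and Aqp3 and, narrowly, for Ngfr. The summed secretory list was also highest in pair 1, at 81270 in ablation 1 and 68950 in control 1, against 27700 to 62982 in the other libraries. Of this sum Cyp2f2 gave most, with 78600 at its highest. The part of this in the marker values was not tested.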

How the results depend on the processing

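No marker passed the threshold in the ablation or culture day comparison under any alternative with all pairs kept, and pseudocount and quantile normalization changed no direction. Without the filter on low values, 3 genes were called for ablation, 12 for culture day and 220 for passage. Ablation called 0 genes with any 1 pair left out. With pair as a term (the replicate block) it called 150 genes, and 8 to 176 with 1 pair left out, the lowest without pair 4, 77 without pair 5 and 90 without pair 3. The block changed the call of no marker, except Dapl1 without pair 1. Aqp3 changed sign in library set 1 alone (0.031) and in edgeR on 9 libraries (0.044), as did Ngfr in edgeR (0.088). For culture day, 0 to 3 genes were called with 1 pair left out, the 3 without pair 1, and 0 without the library set term, in control dishes alone or in ablation dishes alone. The day estimate ranged over -0.19 to 0.24 for Pdpn, -0.16 to 0.20 for Dlk2 and -0.21 to 0.60 for Dapl1 with 1 pair left out. Pdpn was at -0.050 in control dishes, and Dlk2 at -0.0074 without the set term and -0.077 in ablation dishes. For passage, 0 to 505 genes were called with 1 pair left out, 505 without pair 3 and 404 without pair 1, fits in which the lone P2+14 pair is assumed to vary like the others. The count was 0 with library set as a term and 1 in ablation dishes alone. The passage estimate of Ngfr was between -0.47 and 0.29 with 1 pair left out and 0.0024 in control dishes. With 1 pair left out, the gap in response between late and early pairs ranged over -0.36 to 0.0043 for Ngfr, -0.42 to 0.098 for Dapl1 and -0.11 to 0.085 for Aqp3. Between library sets it ranged over -0.11 to 0.051 for Pdpn and -0.058 to 0.15 for Dlk2, with 0 to 7 genes called, the 7 without pair 3. The causes were not tested. The lowest value of any marker was 142 normalized counts, for Dapl1 in ablation 5.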
